A study of Mus musculus with 12 samples.

Results

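Macrophage marker genes were followed in cultures of mature white adipocytes, where they are read as a sign of immune cells left among the floated fat cells. The genes were the 10 rows of the count table with the symbols Lyz2, Csf1r, Cd68, Cd14, Mrc1, Cd163, Tyrobp, Fcer1g, C1qa and C1qb, of 20295 genes in all. The cells were epididymal white adipocytes of lean male C57/BL6J mice (no age is given for them), released from the tissue by collagenase, skimmed off after floating and kept for 2 days in a hydrogel. The study compared 4 groups of 3 libraries each: vehicle (DMSO), 3 h of isoproterenol (ISO), which activates β-adrenergic receptors, inhibitors of the fat lipases ATGL and HSL (Lip), and isoproterenol after those inhibitors (Lip+ISO). All groups share the strain, the depot and the culture, and none carries a genetic change. The study's legend for these cells names the compound SR-3420 as the stimulus, whereas its text and the sample titles name ISO, and ISO was used here. The study states 3 independent experiments, but no source used here says whether 1 experiment is 1 mouse or a pool.

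Macrophages are phagocytes of the innate immune system that reside in every fat depot and multiply in obesity. They sense growth factors, bacterial products and immune complexes through surface receptors, pass these signals on through adaptor chains, digest what they engulf in lysosomes full of lysozyme, and secrete complement components. Floating is used to part buoyant adipocytes from the denser cells of the stromal and vascular fraction, macrophages included, although cells attached to an adipocyte can rise with it.

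Libraries held 22632220 to 43707557 counts. Levels are given as CPM (counts scaled to a library of fixed size), with scaling for library composition by TMM. The cultures carried a strong adipocyte signal, with 10 adipocyte markers summing to 34903 to 51770 CPM in each library. The 10 macrophage markers together summed to 51.8 to 165 CPM, which was 0.00518% to 0.0167% of all counts. Lip replicate 3 lay apart from the other 11 libraries on the third principal component (7.39% of the variance), and it was kept, with the fits that leave it out among those given below.

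The macrophage markers were higher in cultures given ISO. Their summed level was 59.4 ± 7.17 CPM in DMSO (SD, n = 3), 137 ± 26.7 CPM in ISO, 58.7 ± 2.22 CPM in Lip and 95.6 ± 25.5 CPM in Lip+ISO. Of 9 members with enough counts to test, 6 rose with ISO alone (Cd14, Tyrobp, Csf1r, Cd68, Lyz2 and Fcer1g) and 4 rose with ISO when the lipases were inhibited (Cd14, Fcer1g, Tyrobp and Csf1r). Cd14, the co-receptor for bacterial lipopolysaccharide, rose most, by 5.31-fold without and 3.05-fold with the inhibitors. A gene counted as higher or lower at an adjusted p at or under 0.05 in edgeR's two-sided quasi-likelihood test, and by that rule 12.3% of all 13543 tested genes were higher and 13.9% lower in ISO than in DMSO. In such bulk libraries, fewer cells of a type and less RNA per cell cannot be told apart.

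**Figure D1:**
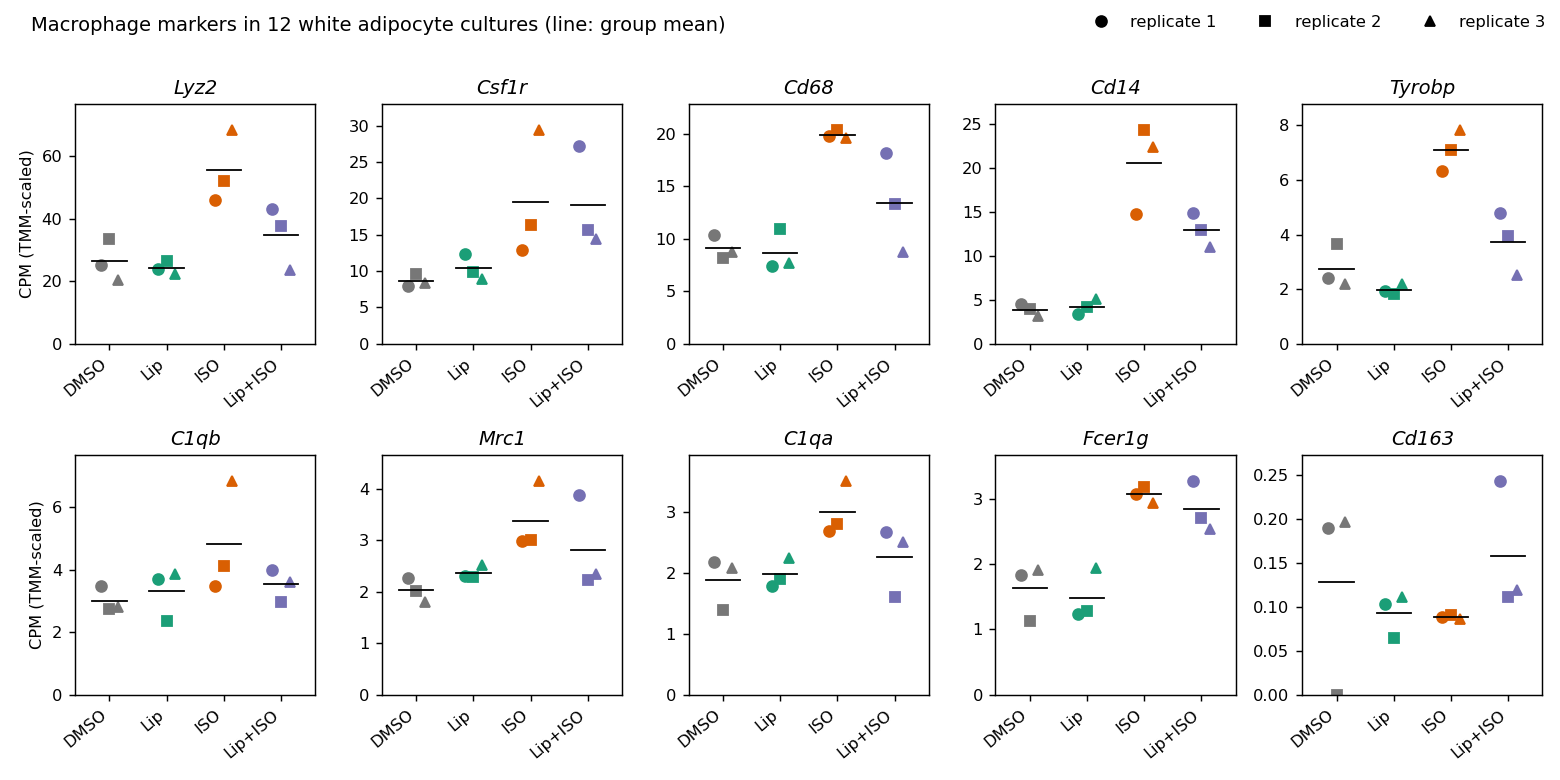
Level of each macrophage marker in the 12 libraries, in TMM-scaled CPM (y axis from 0, a scale per gene). Points are libraries, shaped by replicate number, and lines are group means of 3; the 3 ISO libraries lie above the 3 DMSO libraries for 9 of the 10 genes, and Cd163 reaches at most 0.243 CPM.

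The members differed widely in abundance, which was compared as CPM per kilobase of counted length, averaged over the 12 libraries. Lyz2 was the most abundant, at 33.3 CPM per kb (19.4 to 64.8 over libraries), and every library exceeded the highest value of Cd68 (10.2, range 5.95 to 16.3). Then came Tyrobp (6.87), Cd14 (6.25), Csf1r (3.72), C1qb (3.45), Fcer1g (3.43) and C1qa (2.10), each overlapping its neighbours in range. Mrc1 averaged 0.498 CPM per kb (0.339 to 0.781), below every library of C1qa, and Cd163 averaged 0.0260 with at most 0.054.

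No member overlaps another gene of the table. RefSeq promoters (mouse build GRCm38.p6) were held for 6 members, and the 250 bases before the start were searched on both strands for GAGGAA, the core of the site of PU.1, the master transcription factor of the myeloid lineage, and for TGACG, the short CRE site bound by CREB, the factor activated through β-adrenergic receptors and cAMP. The 3 promoters with a PU.1 core are shown because they belong to members that stood higher in ISO with (Cd68) and without (Mrc1, C1qb) passing the test. Both motifs are in capitals, in the orientation in which they lie (CGTCA and TTCCTC are the reverse strand).
Cd68 (chr11:69666171-69666420, minus strand): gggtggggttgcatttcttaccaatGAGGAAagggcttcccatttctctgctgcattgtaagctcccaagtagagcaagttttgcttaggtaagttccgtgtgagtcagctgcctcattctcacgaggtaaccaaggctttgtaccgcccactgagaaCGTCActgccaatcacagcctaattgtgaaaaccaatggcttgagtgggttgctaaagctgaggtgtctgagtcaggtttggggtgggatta
Mrc1 (chr2:14229164-14229413, plus strand): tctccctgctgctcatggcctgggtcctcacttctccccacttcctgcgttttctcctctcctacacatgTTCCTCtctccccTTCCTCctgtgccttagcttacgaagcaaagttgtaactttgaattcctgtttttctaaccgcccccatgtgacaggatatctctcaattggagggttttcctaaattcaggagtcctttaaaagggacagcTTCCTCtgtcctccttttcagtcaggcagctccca
C1qb (chr4:136886201-136886450, minus strand): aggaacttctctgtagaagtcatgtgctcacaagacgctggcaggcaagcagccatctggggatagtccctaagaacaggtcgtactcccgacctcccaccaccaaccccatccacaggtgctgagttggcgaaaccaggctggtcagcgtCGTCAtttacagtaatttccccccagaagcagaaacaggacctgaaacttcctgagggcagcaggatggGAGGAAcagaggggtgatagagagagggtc
Cd68 and C1qb each held 1 PU.1 core, Mrc1 held 3, and Lyz2, Fcer1g and Cd163 held none in this window. The short CRE site was found in Cd68, 92 bases before the start, and in C1qb, 99 bases before it. Among 32851 RefSeq promoters of the same length, 23.3% held the PU.1 core and 17.8% the short CRE site. The matches are letters in a window and say nothing of binding.

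Lyz2 and Cd68 serve the lysosome and phagosome. Lyz2 (NM_017372, mm9 chromosome 10, 116714597 to 116719328, minus strand) encodes lysozyme, the enzyme that cleaves bacterial cell walls. In DMSO its level was 25.1, 33.5 and 20.6 CPM in replicates 1 to 3, in ISO 46.0, 52.2 and 68.5, in Lip 23.8, 26.4 and 22.3, and in Lip+ISO 43.2, 37.8 and 23.7. Every ISO library stood above every DMSO library, while Lip+ISO replicate 3 stood among the Lip libraries. Lyz2 rose by 1.07 ± 0.22 on the log2 scale with ISO (SE, edgeR adjusted p = 0.00367), a call kept in all 15 fits without 1 library or 1 replicate number. With the inhibitors present the log2 difference was 0.53 ± 0.22 (adjusted p = 0.101), and it was 0.56 by DESeq2 (DESeq2 adjusted p = 0.0453), 0.76 (adjusted p = 0.0145) without Lip+ISO replicate 3 and 0.69 (adjusted p = 0.0172) without replicate 3 of every group. Reads of Lyz2 are uncertain in part, since the coding sequence of its paralog Lyz1 is identical at 425 of 447 bases, but Lyz1 had 0 to 26 counts against 525 to 2307 for Lyz2.

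Cd68 (NM_001291058, chromosome 11, 69477715 to 69479672, minus strand) encodes a heavily glycosylated protein of the lysosome membrane. It stood at 10.4, 8.18 and 8.69 CPM in DMSO, 19.8, 20.4 and 19.6 in ISO, 7.42, 10.9 and 7.67 in Lip, and 18.2, 13.3 and 8.74 in Lip+ISO. The 3 ISO libraries were nearly equal and far above DMSO, whereas Lip+ISO spread from the level of Lip to that of ISO. Cd68 rose with ISO by 1.13 ± 0.23 (log2, SE, edgeR adjusted p = 0.00297), and leaving out replicate 2 of every group took the adjusted p to 0.051 at a log2 fold change of 1.04. With inhibitors the log2 difference was 0.63 ± 0.23 (adjusted p = 0.0569), which passed by DESeq2 (0.66, DESeq2 adjusted p = 0.021), when replicates were blocked (0.60, edgeR adjusted p = 0.0365) and without Lip+ISO replicate 3 (0.88, adjusted p = 0.00506) or Lip replicate 2 (0.82, adjusted p = 0.0287).

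Surface receptors make up 4 of the members. Csf1r (NM_001037859, chromosome 18, 61265226 to 61290793, plus strand) is the receptor kinase for CSF1 and IL-34, on which macrophages depend for survival. Its level was 7.99, 9.53 and 8.38 CPM in DMSO, 12.9, 16.3 and 29.4 in ISO, 12.4, 9.88 and 8.94 in Lip, and 27.2, 15.6 and 14.4 in Lip+ISO. In both settings the libraries with ISO stood above those without, with 1 high library in each ISO group (ISO replicate 3 and Lip+ISO replicate 1). Csf1r rose by 1.18 ± 0.30 with ISO (log2, SE, edgeR adjusted p = 0.0119) and by 0.87 ± 0.30 with ISO under inhibitors (adjusted p = 0.0428). The first call was lost without ISO replicate 3 (0.76, adjusted p = 0.0566), without replicate 2 of every group (1.36, adjusted p = 0.0605) and without replicate 3 of every group (0.74, adjusted p = 0.116). The second was lost in 9 of the 15 fits: without any 1 of the DMSO libraries, ISO replicate 2, Lip replicate 2 or 3, Lip+ISO replicate 1, or replicate 1 or 2 of every group, with the lowest value without Lip+ISO replicate 1 (0.53, adjusted p = 0.208). It was also lost with library totals (0.77, adjusted p = 0.0821).

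Cd14 (NM_009841, chromosome 18, 36884718 to 36886469, minus strand) encodes the protein that hands lipopolysaccharide to the TLR4 receptor. It stood at 4.55, 3.90 and 3.13 CPM in DMSO and at 14.8, 24.3 and 22.4 CPM in ISO. It stood at 3.44, 4.19 and 5.04 CPM in Lip and at 14.8, 12.9 and 11.002 CPM in Lip+ISO. No library with ISO came near one without it: the lowest with ISO (11.002) was over the highest without (5.04). The log2 fold change was 2.41 ± 0.22 with ISO alone (SE, 95% interval 1.92 to 2.89, edgeR adjusted p = 8.3e-06) and 1.61 ± 0.22 under inhibitors (1.14 to 2.08, adjusted p = 1.2e-04). Both calls held in each of the 15 left-out fits and with library totals, DESeq2, no filter on low counts, the replicate block and a fit of only the groups compared.

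Mrc1 (NM_008625, chromosome 2, 14151041 to 14253650, plus strand) encodes the mannose receptor CD206, common on tissue-resident macrophages. It stood at 2.27, 2.01 and 1.80 CPM in DMSO, 2.99, 3.01 and 4.15 in ISO, 2.30, 2.29 and 2.52 in Lip, and 3.88, 2.22 and 2.34 in Lip+ISO. The ISO libraries lay above DMSO, and Lip+ISO overlapped Lip apart from its replicate 1. The log2 difference was 0.73 ± 0.26 with ISO (SE, edgeR adjusted p = 0.0547), past the threshold with the replicate block (0.74, edgeR adjusted p = 0.0375), with DESeq2 (0.74, DESeq2 adjusted p = 0.0378) and without Lip+ISO replicate 1 (0.73, edgeR adjusted p = 0.0265), and it was 0.25 ± 0.26 under inhibitors (edgeR adjusted p = 0.541). Cd163 (NM_001170395, chromosome 6, 124254669 to 124280545, plus strand), the scavenger receptor that clears hemoglobin bound to haptoglobin, had 0 to 6 counts in a library. It was not tested, and no difference in it was detectable at this depth, where a count of 0 allows up to 3 counts or 0.0686 to 0.133 CPM (counting error only).

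Tyrobp and Fcer1g encode adaptor chains (DAP12 and the Fc receptor γ chain) that carry the signals of many myeloid receptors to the kinase SYK. Tyrobp (NM_011662, chromosome 7, 31198807 to 31202598, plus strand) stood at 2.40, 3.65 and 2.19 CPM in DMSO, 6.34, 7.10 and 7.83 in ISO, 1.92, 1.83 and 2.19 in Lip, and 4.77, 3.93 and 2.50 in Lip+ISO. All libraries with ISO were above their counterparts without it, and all Lip+ISO libraries were below all ISO libraries. Tyrobp rose by 1.37 ± 0.26 with ISO (log2, SE, edgeR adjusted p = 0.00208), in each of the 15 left-out fits as well, and by 0.91 ± 0.27 under inhibitors (adjusted p = 0.0214). The second call was lost in 6 of the 15 fits (without Lip replicate 1 or 2, Lip+ISO replicate 1 or 2, or replicate 1 or 2 of every group, adjusted p up to 0.203) and with library totals (0.81, adjusted p = 0.0509) or only the groups compared (0.92, adjusted p = 0.0581).

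Fcer1g (NM_010185, chromosome 1, 173159703 to 173164480, minus strand) stood at 1.83, 1.13 and 1.92 CPM in DMSO, 3.08, 3.19 and 2.94 in ISO, 1.24, 1.29 and 1.94 in Lip, and 3.27, 2.71 and 2.54 in Lip+ISO. The 6 libraries with ISO were all above the 6 without. It rose by nearly the same amount in both settings, by 0.91 ± 0.27 (log2, SE, edgeR adjusted p = 0.0252) and by 0.93 ± 0.27 (adjusted p = 0.0214). The call for ISO alone was lost in 7 of the 15 fits (without DMSO replicate 1 or 2, ISO replicate 1 or 2, or any 1 replicate number of every group, adjusted p up to 0.229). The call under inhibitors was lost in 5 (without Lip replicate 1 or 2, Lip+ISO replicate 1, or replicate 1 or 2 of every group, adjusted p up to 0.223) and with only the groups compared (adjusted p = 0.0545).

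C1qa and C1qb encode chains of C1q, the recognition unit of the classical complement pathway, made by resident macrophages, and the genes are neighbours on chromosome 4. C1qa (NM_007572, 136451831 to 136454759, minus strand) stood at 2.18, 1.38 and 2.08 CPM in DMSO, 2.69, 2.80 and 3.50 in ISO, 1.79, 1.90 and 2.24 in Lip, and 2.67, 1.59 and 2.50 in Lip+ISO. C1qb (NM_009777, 136436061 to 136442092, minus strand) stood at 3.47, 2.73 and 2.82 CPM in DMSO, 3.48, 4.12 and 6.83 in ISO, 3.71, 2.35 and 3.85 in Lip, and 4.00, 2.97 and 3.61 in Lip+ISO. ISO lay above DMSO for both, though the nearest C1qb libraries were 3.47 and 3.48 CPM, and Lip+ISO overlapped Lip. The log2 difference with ISO was 0.67 ± 0.27 for C1qa (SE, edgeR adjusted p = 0.088) and 0.67 ± 0.28 for C1qb (adjusted p = 0.0963), so neither passed, although C1qa did with the replicate block (0.69, edgeR adjusted p = 0.0396). Under inhibitors it was 0.19 ± 0.27 (adjusted p = 0.677) and 0.09 ± 0.28 (adjusted p = 0.854).

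**Figure D2:**
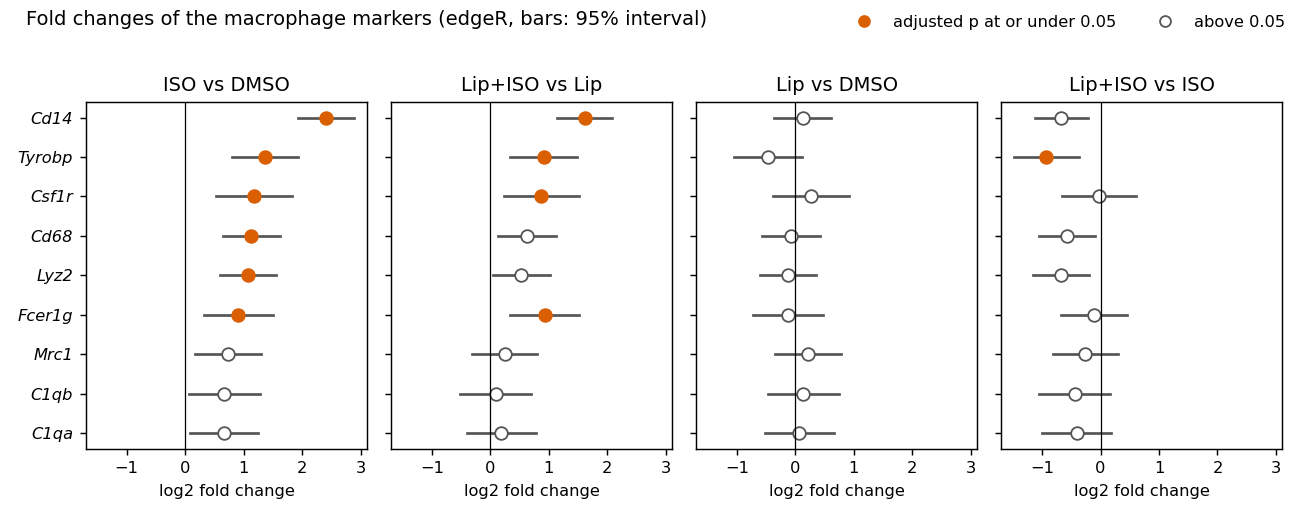
Log2 fold change of the 9 tested macrophage markers in 4 comparisons (x axis), with 95% intervals as bars; filled points have an edgeR adjusted p at or under 0.05. Cd14 lies farthest right in both comparisons of ISO, at 2.41 and 1.61, Lip against DMSO holds no filled point, and Tyrobp (-0.92) is the filled point in Lip+ISO against ISO.

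Taking the members as a list, ISO against DMSO asked for the response to the agonist with lipolysis intact. All 9 had a positive log2 difference, with a median of 1.07 against 0.00 over all tested genes, and 6 of 9 passed higher, beside the 12.3% of all genes, and none (0) lower, beside 13.9%. The DMSO and ISO libraries did not overlap for any of the 9 (20.7% of all tested genes were higher without overlap). With blocked replicates 8 of 9 passed higher, beside 2552 of all 13543 tested genes. With DESeq2 7 passed, and without replicate 2 of every group 3.

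Lip+ISO against Lip asked for the same response when lipolysis was blocked. The median over members was 0.63 against -0.00 over all tested genes, and 4 of 9 passed higher where 11.5% of all genes did, and none (0) lower where 15.8% did. The libraries did not overlap for Csf1r, Cd14, Tyrobp and Fcer1g (17.2% of all tested genes were higher without overlap). The count was 5 with the replicate block, 6 with DESeq2, 2 with library totals, 2 without Lip replicate 1 or 2, and 1 without Lip+ISO replicate 1 or without replicate 1 or 2 of every group. With library totals the median of all tested genes was -0.12, rises made up 26.5% of the calls instead of 42.2%, and C1qb turned to -0.02. For ISO against DMSO the share of rises was 37.0% with library totals instead of 47.1%.

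Lip against DMSO asked whether the inhibitors alone moved the markers. They moved no member past the threshold (0 of 9 by edgeR, also at an unadjusted p under 0.05 and by DESeq2), and the log2 differences ran from -0.46 ± 0.27 (SE) for Tyrobp to 0.27 ± 0.30 for Csf1r. Few genes passed at all in this comparison, 7 or 0.0517% of those tested, and 27 with the replicate block. The 95% intervals of the members reached from -1.04 (Tyrobp) to 0.92 (Csf1r), so changes within those bounds were not detectable here.

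Lip+ISO against ISO asked what the inhibitors did to the level reached under the agonist. It shares the ISO libraries with ISO against DMSO and the Lip+ISO libraries with Lip+ISO against Lip. All 9 differences were negative with a median of -0.44, yet only Tyrobp passed, with -0.92 ± 0.26 (SE, edgeR adjusted p = 0.0419), so that 1 of 9 was lower where 4.59% of all genes were, and none (0, also at an unadjusted p under 0.05 and by DESeq2) higher where 4.36% were. Cd14 differed by -0.67 ± 0.21 (adjusted p = 0.0666), Lyz2 by -0.67 ± 0.22 (adjusted p = 0.0826) and Cd68 by -0.57 ± 0.22 (adjusted p = 0.141). When replicates were blocked, Lyz2 (-0.70, edgeR adjusted p = 0.0364) and Cd14 (-0.66, edgeR adjusted p = 0.0432) were lower as well, so that 3 of 9 passed, as they did by DESeq2. Every Lip+ISO library lay below every ISO library for Lyz2, Cd68, Tyrobp and C1qa. The share of all tested genes doing so was not computed, so this is not read as a result about the members. In the other direction, 1614 of 13543 tested genes were higher in Lip+ISO without overlap. For C1qa the nearest libraries were 2.67 and 2.69 CPM, and its difference was -0.41 ± 0.27 (adjusted p = 0.392). Csf1r was level (-0.03 ± 0.29). The call of Tyrobp was lost in 11 of the 15 left-out fits (it held without DMSO replicate 2 or 3, Lip replicate 3 or Lip+ISO replicate 1) and with library totals (-0.96, adjusted p = 0.0527).

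Whether ISO raised the members less when lipases were inhibited was tested by the interaction, the log2 effect of ISO in inhibited cultures less its effect in uninhibited ones. No member passed (0 of 9 by edgeR and by DESeq2), while 1.62% of all tested genes did in either direction, and 1 member had an unadjusted p under 0.05. That member was Cd14, at -0.80 ± 0.31 (SE, 95% interval -1.46 to -0.14, edgeR adjusted p = 0.264). The others lay between -0.58 (C1qb) and 0.02 (Fcer1g), and the smaller number of calls under inhibitors is therefore not shown to be a smaller response.

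Within a library the members can be set against each other, which takes out library scaling. Each member's log2 CPM minus the mean of the 9 tested members was used. By this measure Cd14 stood between -0.32 and 0.17 in the 6 libraries without ISO and between 0.81 and 1.45 in the 6 with it, a shift of 1.27 with ISO alone and 0.97 under inhibitors. Lyz2, Csf1r and Cd68 kept their place with ISO alone, with shifts of -0.03, -0.02 and 0.03, and shifted by -0.15, 0.18 and -0.05 under inhibitors. Mrc1, C1qa and C1qb lost ground against the others, with shifts of -0.40 and -0.44 for Mrc1, -0.44 and -0.48 for C1qa and -0.49 and -0.52 for C1qb. The Mrc1 ranges without ISO (-1.09 to -0.80) and with it (-1.54 to -1.10) did not meet, whereas those of C1qa and C1qb overlapped. Tyrobp shifted by 0.27 and 0.21, and Fcer1g by -0.19 and 0.28. A ratio within a library shows unequal change and not which member stayed constant.

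**Figure D3:**
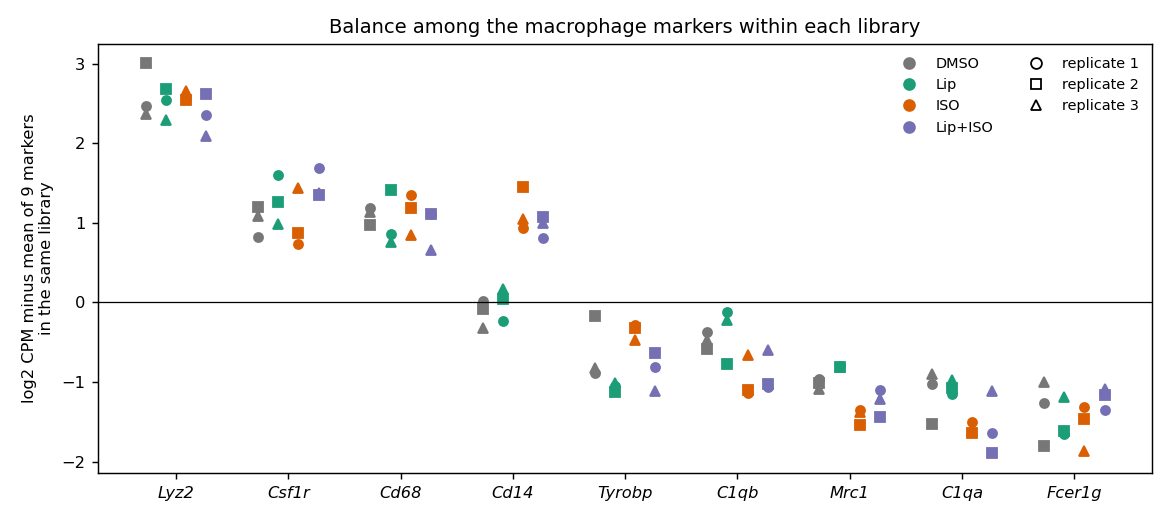
Balance among the 9 tested macrophage markers, as log2 CPM of each marker minus the mean of the 9 in the same library (y axis), for the 12 libraries in 4 groups (colors) and 3 replicates (shapes). Cd14 lies between -0.32 and 0.17 in libraries without ISO and between 0.81 and 1.45 in those with it, while Lyz2, Csf1r and Cd68 overlap between groups.

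Across the 12 libraries the members went up and down together. The 36 pairs had a median Pearson r of log2 CPM of 0.74 (0.48 to 0.96), highest for Lyz2 with Tyrobp, and after the group means were removed the median was 0.41 (-0.29 to 0.89) with 30 of 36 pairs above 0. These are descriptions over libraries that share depth and treatment. Of 9834 other tested genes with at least 5 CPM on average, Phlda1, Chac1, Pa2g4, Vegfa and Mpeg1 followed the members' mean most closely over all 12 libraries (r of 0.94 to 0.95), of which Mpeg1, encoding a pore-forming protein, is itself a macrophage gene. After removal of group means the closest were Pard3b, Ppip5k2, Usp10, Dclre1a and Stx11 (r of 0.92 to 0.95).

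Genes that act with the members were listed as 11 ligands, co-receptors and other partners. With ISO 2 of 11 rose and 2 fell, counts near the 12.3% of all tested genes that were higher and 13.9% lower. With the replicate block 4 of 11 rose, beside 2552 of all 13543 tested genes. Csf1, the growth factor read by CSF1R, was abundant and fell, from 844, 856 and 841 CPM in DMSO to 488, 502 and 491 in ISO, and from 1136, 1079 and 999 in Lip to 470, 474 and 410 in Lip+ISO. The log2 fold changes were -0.78 ± 0.08 (SE, edgeR adjusted p = 1.9e-05) and -1.25 ± 0.08 (adjusted p = 2.0e-07), so ligand and receptor moved in opposite directions. The other ligand, Il34, stood at 17.5 ± 1.98 CPM in DMSO and 15.6 ± 1.65 CPM in ISO (SD, n = 3; edgeR adjusted p = 0.46).

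Tlr4, the receptor served by CD14, also went against its partner. It fell from 81.6, 80.4 and 86.7 CPM in DMSO to 51.1, 46.6 and 50.9 in ISO (-0.74 ± 0.07, SE, edgeR adjusted p = 1.6e-05). Under inhibitors it stood at 90.0, 92.7 and 99.4 CPM in Lip and 105, 98.6 and 112 in Lip+ISO, a log2 difference of 0.16 ± 0.07 (adjusted p = 0.137) that passed with the replicate block (0.16, edgeR adjusted p = 0.0458). It was higher in Lip+ISO than in ISO by 1.09 ± 0.08 (adjusted p = 3.8e-06), and its interaction was 0.90 ± 0.11 (adjusted p = 0.00116, and 0.0759 without replicate 2 of every group). Ly96, the MD-2 subunit of the same receptor, and Lbp, which loads lipopolysaccharide onto CD14, did not pass with ISO (-0.34 and 0.31, edgeR adjusted p = 0.279 and 0.463), though Lbp did with the replicate block (0.30, edgeR adjusted p = 0.0429).

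Syk, the kinase downstream of both adaptors, rose with them under ISO alone. Its level was 4.11, 3.86 and 2.62 CPM in DMSO, 7.97, 7.91 and 10.2 in ISO, 2.75, 1.96 and 3.57 in Lip, and 5.46, 3.74 and 3.42 in Lip+ISO, so the groups overlapped under inhibitors only. Its log2 fold change was 1.30 ± 0.26 with ISO alone (SE, edgeR adjusted p = 0.00327) and 0.60 with ISO under inhibitors (adjusted p = 0.122). In Lip+ISO against ISO it did pass, at -1.05 ± 0.26 (adjusted p = 0.026). The latter call was lost in 6 of 15 left-out fits (without ISO replicate 2 or 3, Lip+ISO replicate 2 or 3, or replicate 2 or 3 of every group).

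Haptoglobin (Hp) and heme oxygenase (Hmox1) belong to the hemoglobin route of Cd163. Hp did not pass (-0.11, edgeR adjusted p = 0.619). Hmox1, which also answers to oxidative stress in many cell types, stood at 2100, 2116 and 1630 CPM in DMSO, 5076, 5020 and 5364 in ISO, 1978, 1999 and 1407 in Lip, and 4057, 2126 and 1468 in Lip+ISO. It rose with ISO by 1.40 ± 0.28 (SE, edgeR adjusted p = 0.00317), and Lip+ISO replicate 1 stood apart from its group. Its lower level in Lip+ISO than in ISO (-1.01 ± 0.28, adjusted p = 0.0421) was lost in 12 of 15 left-out fits (it held without Lip replicate 3, Lip+ISO replicate 1 or replicate 1 of every group) and with only the groups compared (adjusted p = 0.104). Of the cytokine and activation genes (12 listed, 7 tested), 3 rose with ISO, beside 12.3% of all tested genes. They were Il6 by 2.61 ± 0.27, Tgfb1 by 0.85 ± 0.14 and Il10 by 2.42 ± 0.66 (SE, edgeR adjusted p = 2.1e-05, 6.3e-04 and 0.0176). The count was 2 without DMSO replicate 1 or 3, ISO replicate 2, or replicate 1 or 3 of every group. Ccl2 (-0.38, adjusted p = 0.124) did not pass with ISO, though it did with the replicate block (-0.37, edgeR adjusted p = 0.00402). Under inhibitors 1 of 7 rose, beside 11.5% of all tested genes. It was Il6 (2.55, edgeR adjusted p = 1.1e-05), at 1.63 ± 0.21 CPM in Lip and 9.54 ± 0.28 CPM in Lip+ISO (SD, n = 3). Il1b was nearly absent in all groups, with no count in the DMSO and Lip libraries and at most 1 in an ISO or Lip+ISO library.

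Other macrophage genes were read as separate lists, in which genes are named for their abundance or, after their values were seen, for their call or role. Of 10 further pan-macrophage genes 4 rose with ISO, beside 12.3% of all tested genes. Mpeg1, Fcgr3 and Emr1 were among the 4, and the list's median was 0.62. Fcgr3, an Fc receptor, rose by 1.16 ± 0.39 (SE, edgeR adjusted p = 0.042) and Emr1, which encodes F4/80, by 0.69 ± 0.24 (adjusted p = 0.0482). Mpeg1 rose by 0.93 ± 0.19 (adjusted p = 0.00314, and 0.0548 without replicate 3 of every group), and Lgmn, a lysosomal protease, differed by 0.54 (adjusted p = 0.0961, and 2.0e-04 with the replicate block).

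Under inhibitors none of the 10 passed (0 by edgeR, 1 by DESeq2, 1 at an unadjusted p under 0.05), with a median of 0.23. Of all tested genes 11.5% were higher and 15.8% lower in that comparison. For ISO alone, 2 of 10 passed with library totals and 1 without replicate 3 of every group.

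Genes of lipid-associated macrophages and monocytes had the highest summed level of the macrophage and leukocyte lists, most of it from Spp1 and Gpnmb. In DMSO Mmp12, Trem2, Atp6v0d2, Itgax and Cx3cr1 of the same list averaged only 24.6, 11.3, 3.12, 1.18 and 0.199 CPM. Which cells the Spp1 and Gpnmb transcripts came from was not tested. In this list the monocyte genes Ccr2, Ly6c2 and Plac8 averaged only 0.341, 0.0105 and 0.131 CPM in DMSO. Here 5 of 9 tested genes rose with ISO, beside 12.3% of all tested genes. With the replicate block 7 of 9 rose, beside 2552 of all 13543 tested genes, and without replicate 2 of every group 1 did. Under inhibitors 3 of 9 rose (Mmp12, Cx3cr1 and Atp6v0d2), beside 11.5% of all tested genes. The latter count was 0 without Lip replicate 2, Lip+ISO replicate 1, or replicate 1 or 2 of every group. Spp1, encoding osteopontin, stood at 225 ± 48.3 CPM in DMSO and 539 ± 41.7 CPM in ISO (SD, n = 3), up by 1.26 ± 0.29 on the log2 scale (SE, adjusted p = 0.00637 in edgeR), and Gpnmb, a lysosomal glycoprotein, at 227 ± 24.3 and 329 ± 36.4 CPM (0.54 ± 0.13, adjusted p = 0.0102). The elastase Mmp12 stood at 24.6 ± 7.93 and 71.3 ± 12.8 CPM (1.53 ± 0.35, adjusted p = 0.00722) and rose also under inhibitors, from 15.0 ± 2.12 to 37.8 ± 22.3 CPM (1.33 ± 0.36, adjusted p = 0.0142). The calls of Gpnmb and Mmp12 with ISO were lost without replicate 2 of every group (adjusted p = 0.0784 and 0.0632), and that of Gpnmb also without ISO replicate 2 (adjusted p = 0.0514) or replicate 3 of every group (adjusted p = 0.0501).

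Of genes of resident macrophages (10 listed) 1 of 7 tested rose with ISO, a share near the 12.3% of all genes. It was Stab1 (1.21 ± 0.33 SE, edgeR adjusted p = 0.0175, lost without DMSO replicate 1 or 3, ISO replicate 2 or 3, or replicate 2 or 3 of every group), and the list's median was 0.22. Folr2 differed by 0.56 (adjusted p = 0.0599, and 0.0483 by DESeq2) and F13a1 by 0.22 (adjusted p = 0.711). Whether the resident list differs from the lipid-associated list was not tested.

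Genes shared by most leukocytes were higher with ISO too. Of 9 tested, 7 rose with ISO, beside 12.3% of all tested genes, with a median of 1.08. With the replicate block 8 rose, beside 2552 of all 13543 tested genes, and without replicate 2 of every group 1 did. Under inhibitors 4 rose (Itgb2, Ctss, Irf8 and Cybb), beside 11.5% of all tested genes, with a median of 0.81. The latter count was 1 with library totals and 0 with only the groups compared or without Lip replicate 1, Lip+ISO replicate 1 or replicate 1 of every group. Ctss, Laptm5 and Itgb2, the most abundant, rose by 1.28 ± 0.28, 1.38 ± 0.30 and 1.46 ± 0.33 (SE, edgeR adjusted p = 0.00456, 0.00475 and 0.00628), of which Ctss and Itgb2 did not pass without replicate 2 of every group (adjusted p = 0.0588 and 0.0653). Lymphocyte genes were almost absent, with 10 genes summing to 0.294 to 1.55 CPM and 1 of them tested (Cd3e, 1.29, edgeR adjusted p = 0.451). Among granulocyte and mast cell genes (10 listed, 4 tested), Epx, encoding eosinophil peroxidase, had 0 or 1 count in each library without ISO and 53 to 272 counts in each with it, and S100a8, encoding a calcium-binding protein of neutrophils, rose by 1.26 (edgeR adjusted p = 0.0372, lost without any 1 of the DMSO libraries, ISO replicate 2 or 3, or any 1 replicate number of every group). Other genes of the list did not pass or were too low to test. Prg2, another eosinophil gene, had 0 to 2 counts in every library, S100a9, the partner of S100a8, averaged 0.184 CPM in DMSO and 0.162 CPM in ISO, and the mast cell proteases Cpa3 and Cma1 averaged 0.952 and 1.11 CPM in DMSO and 1.02 and 0.467 CPM in ISO.

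**Figure D4:**
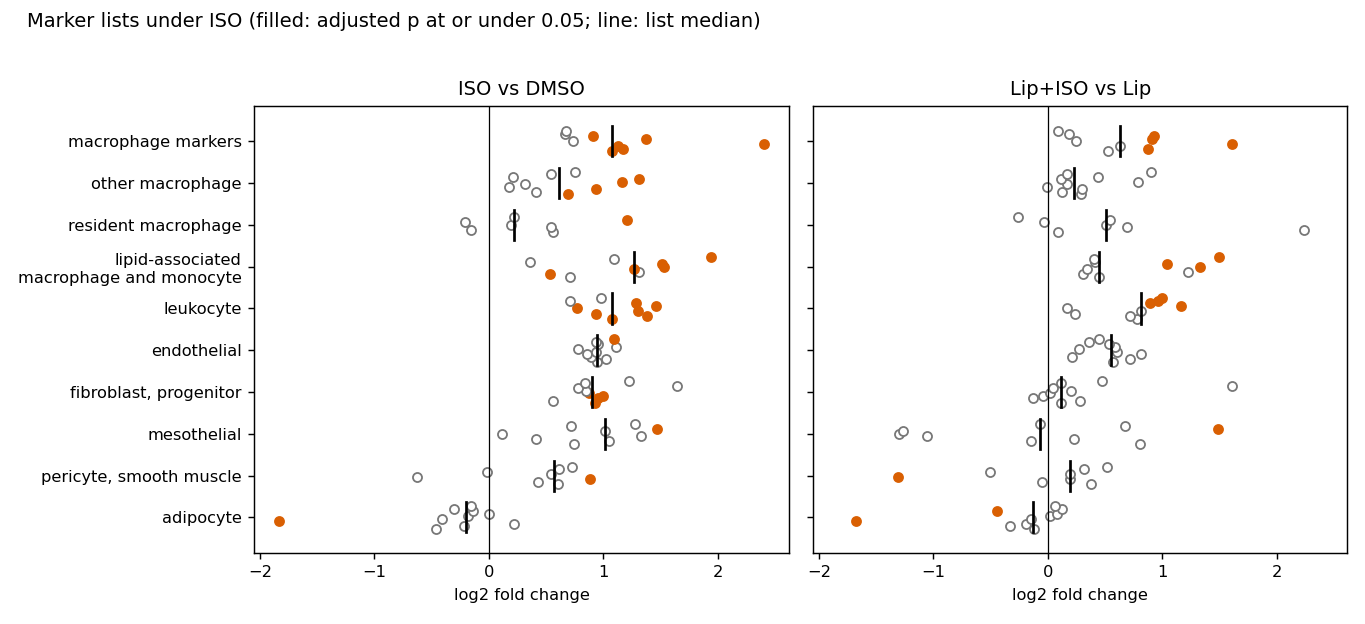
Log2 fold changes of marker lists for ISO against DMSO and for Lip+ISO against Lip (x axis). Points are genes, filled at an edgeR adjusted p at or under 0.05, and lines are list medians; in ISO against DMSO the macrophage markers have a median of 1.07, endothelial markers 0.94, fibroblast markers 0.90 and adipocyte markers -0.20.

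Most markers of other stromal cells had a positive log2 difference with ISO as well. In the unblocked fit 12.3% of all tested genes passed higher. The counts of the endothelial, mesothelial and pericyte lists given below were near that share. The 10 endothelial markers summed to 163, 301 and 193 CPM in DMSO and to 302, 553 and 424 CPM in ISO. They summed to 95.2, 277 and 139 CPM in Lip and to 122, 343 and 265 CPM in Lip+ISO. Replicate 2 was highest and replicate 1 lowest in all 4 groups. All 10 had a positive log2 difference with ISO (median 0.94). Eng, Cdh5 and Pecam1, the most abundant, differed by 0.93, 1.02 and 0.95 (edgeR adjusted p = 0.082, 0.125 and 0.15). Of the 10, 1 passed, Flt1 (1.09, edgeR adjusted p = 0.0398), but all 10 passed when replicates were blocked, Pecam1 among them (0.94, edgeR adjusted p = 0.00327), and 7 with only the groups compared. None (0) passed with library totals or without DMSO replicate 1 or 3, ISO replicate 2 or 3, or replicate 3 of every group. Under inhibitors 0 of 10 passed (also 0 at an unadjusted p under 0.05 and by DESeq2, 5 with the replicate block), with a median of 0.55. The sum of the macrophage markers did not keep the order of the replicates. It was 60.4, 66.0 and 51.8 CPM in DMSO replicates 1 to 3, 112, 133 and 165 in ISO, 58.2, 61.1 and 56.7 in Lip, and 122, 93.2 and 71.5 in Lip+ISO.

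Fibroblast and progenitor markers (10) summed to 449 to 793 CPM in DMSO, 901 to 1196 in ISO, 602 to 642 in Lip and 557 to 758 in Lip+ISO. With ISO 4 of 10 rose (Col1a1, Col1a2, Col3a1 and Pdgfra; 9 with the replicate block, 7 by DESeq2 and 2 without replicate 3 of every group), with a median of 0.90. Under inhibitors 0 of 10 passed (1 by DESeq2 and 1 at an unadjusted p under 0.05), with a median of 0.12. Mesothelial markers (9 in the table) summed to 30.3 to 75.2 CPM in DMSO and 75.8 to 91.6 CPM in ISO. They summed to 16.1 to 128 CPM in Lip, highest in Lip replicate 3, the library that lay apart, and to 48.7 to 70.4 CPM in Lip+ISO. With ISO 1 of 9 passed, Wt1 (1.47, edgeR adjusted p = 0.00374), against 3 with the replicate block and 4 with only the groups compared. Lrrn4 (0.41, adjusted p = 0.398) and Upk3b (1.05, adjusted p = 0.125, and 0.044 with the replicate block) did not pass. Under inhibitors 1 of 9 rose, beside 11.5% of all tested genes. It was again Wt1 (1.49, edgeR adjusted p = 0.00257), at 7.67 ± 3.20 CPM in Lip and 21.7 ± 3.38 CPM in Lip+ISO (SD, n = 3). Of 8 pericyte and smooth muscle markers Pdgfrb rose with ISO alone (0.88, edgeR adjusted p = 0.0103, lost without DMSO replicate 3 or replicate 1 or 3 of every group). With the replicate block 6 rose and 1 fell. Acta2 differed by -0.63 (edgeR adjusted p = 0.118, and 0.0495 with the replicate block) and Tagln by -0.02 (adjusted p = 0.966). Under inhibitors 1 of 8 was lower, beside 15.8% of all tested genes, and none (0) higher, beside 11.5%. Acta2 stood at 193 ± 35.3 CPM in Lip and 78.0 ± 27.1 CPM in Lip+ISO (SD, n = 3). No marker of these lists was at 0 in all libraries. Adipocyte markers did not rise with ISO: 1 of 10 fell (Lep, -1.84, edgeR adjusted p = 1.9e-04), a count near the 13.9% of all tested genes that fell. The median was -0.20, and Fabp4, Lpl and Cfd differed by -0.19, -0.00 and -0.41 (adjusted p = 0.323, 0.994 and 0.212). The part of these other cells and of cell composition in the results on macrophage markers was not tested.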

How the data were processed

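RNA sequencing libraries of 12 adipocyte cultures (TruSeq2 kit) were aligned by the authors to mm9 with STAR (2.4.2a in the submitters' processing notes) and read through HOMER, keeping one read per position and length, and the authors deposited raw counts per RefSeq gene made with iRNA-seq. Keeping one read per position can compress highly abundant genes. The deposited gene lengths in bp gave CPM per kb.

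Genes passing filterByExpr (13543 of 20295) were fitted in edgeR (4.0.16, R 4.3.3) with TMM scaling, 1 mean per group over all 12 libraries and the quasi-likelihood test. P-values were adjusted by Benjamini-Hochberg over all tested genes with a threshold of 0.05, SE is the log2 fold change over the root of F, and intervals are 95%. The code was tested on simulated data. Alternatives were library totals, DESeq2 (1.42.0), no filter, a replicate block, only the groups compared, a log2 fold change of at least 1, and leaving out each library or replicate number. The members and lists were chosen with earlier results of these data known. Named genes were all members, the 3 most abundant tested genes of each list, genes closest to the members' mean, and, after their values were seen, others named for a call or role.

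Replicate numbers were taken to pair libraries where every same-numbered pair of deviations from the group means correlated above 0.1. This held for ISO against DMSO (0.298, 0.331 and 0.139 for replicates 1 to 3), Lip+ISO against Lip (0.192, 0.298 and 0.232) and Lip against DMSO (0.343, 0.369 and 0.197), and the pairing comes from the titles' replicate numbers. The reported fits have no replicate term, so their p-values and counts leave this pairing out, except where the replicate block is named. For ISO against DMSO, members called higher were 6 without the block and 8 with it, and all tested genes 1670 and 2552. No 2 libraries of a group agreed within sampling noise (chi-square per degree of freedom 15.7 to 73.5). A listed gene is not reported here. P-values measure the spread between these libraries.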

Additional observations from a re-analysis of the deposited data

Results flagged for a closer look

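The response to ISO of Col1a2, a collagen gene, and of Tlr4, the partner of Cd14, differed between cultures with and without lipase inhibitors by the interaction term of the edgeR fit (two-sided, Benjamini-Hochberg adjusted). For Col1a2 the interaction was -1.03 on the log2 scale (adjusted p = 0.0455, lost in 13 of 15 left-out fits) and for Tlr4 0.90 (adjusted p = 0.00116). With 3 libraries a group, single libraries were not tested for standing apart.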

How the results depend on the processing

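For ISO against DMSO the count of members higher was 3 to 7 over fits leaving out 1 library or replicate number. For Lip+ISO against Lip it was 1 to 6 over those fits, 2 with library totals, 2 with only the groups compared and 1 at a log2 fold change of at least 1. For Lip+ISO against ISO the count lower was 0 to 3 over those fits, 3 with DESeq2, 3 with the replicate block, and 0 with library totals, with only the groups compared, or where the log2 change had to reach 1. In that comparison 1 of the 3 same-numbered pairs correlated below 0.1 (0.102, 0.311 and 0.0373), although the numbers paired the libraries in the other comparisons, so the block is given beside the unblocked values. Among members the block changed no other call than those given.

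Over all tested genes, the replicate block gave 1149 higher and 1458 lower for Lip+ISO against ISO (590 and 621 without it), 427 and 471 for the interaction (122 and 98), 6 and 21 for Lip against DMSO (1 and 6), and for ISO against DMSO 2552 higher (1670). A log2 fold change of at least 1 left 769 and 244 for ISO against DMSO, 568 and 428 for Lip+ISO against Lip, 107 and 162 for Lip+ISO against ISO, and 55 and 46 for the interaction. DESeq2 gave 324 and 236 for the interaction and 19 and 33 for Lip against DMSO.

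Some signs turned. Lpl with ISO was 0.0070 with DESeq2 and 0.0039 with only the groups compared, C1qb under inhibitors -0.015 with totals, and the Fcer1g interaction -0.060 with totals and -2.4e-05 with the block. Over the left-out fits, log2 values with ISO ran for F13a1 from -0.059 to 0.56, Cd3e -0.55 to 2.06, Cpa3 -0.25 to 0.38, Tagln -0.20 to 0.29 and Lpl -0.13 to 0.075. With ISO under inhibitors they ran for Mrc1 from -0.059 to 0.41, C1qa -0.0054 to 0.39, C1qb -0.11 to 0.22 and Hmox1 -7.6e-04 to 0.80. For Lip against DMSO they ran for Lyz2 from -0.28 to 0.072, Cd68 -0.34 to 0.13, Cd14 -0.15 to 0.39, Fcer1g -0.38 to 0.075, C1qa -0.11 to 0.25 and C1qb -0.038 to 0.33. For Lip+ISO against ISO they ran for Csf1r from -0.59 to 0.55 and Mrc1 -0.63 to 0.022, and for the interaction for Csf1r from -0.65 to 0.20, Tyrobp -0.80 to 0.049 and Fcer1g -0.29 to 0.27. The cause was not tested. Depth limits Cd163. Among tested members the SE was largest for Csf1r in each comparison (0.30 for ISO against DMSO).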
